A study of Mus musculus with 4 samples.

Results

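Members of the Toll-like receptor family, *Tlr1* to *Tlr9* and *Tlr13*, were followed in RNA-Seq libraries of tumor-infiltrating CD4+ T cells of the lung, from mice of 2 genotypes, WT and CD4/ALK4-KO. The members were chosen by name, as 10 of the 25239 genes that each count table lists. The rule itself used no measured value, but the members were chosen with earlier results of these data known. *Tlr11* and *Tlr12*, the other mouse genes of the family, were not members and are given at the end for reference. All 10 members passed the filter on low counts and were tested, so none is missing from the counts below.

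Counts were available for 4 libraries, 2 of each genotype, described as biological replicates of C57BL/6 background. The CD4/ALK4-KO mice were CD4CreERT2+/-/Acvr1bfl/fl, in which tamoxifen switches on a Cre recombinase driven by the mouse *Cd4* promoter to delete *Acvr1b*, the gene for the activin-A receptor ALK4, and the WT mice are described as littermates. Mice of both genotypes received 500000 LLC-OVA cells, Lewis lung carcinoma cells carrying ovalbumin, by the intravenous route, and lung tumors were taken 18 to 22 days later according to the sample labels, whereas the methods give a slightly earlier range. CD4+ T cells were then isolated with a kit from the leukocytes of a density gradient. Whether the WT mice carried Cre or received tamoxifen, and whether a library came from 1 mouse or a pool, is not given in the sources used here. The p-values below measure the spread between these libraries.

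Toll-like receptors are transmembrane proteins of innate immunity, whose leucine-rich repeats bind microbial or damaged-cell products and whose intracellular TIR domain recruits adaptors. Those at the cell surface bind lipopeptides, lipopolysaccharide or flagellin, and those in endosomes bind nucleic acids. The adaptors MyD88 and TRIF pass the signal through IRAK kinases, TRAF ubiquitin ligases and IKK kinases to NF-kappaB and interferon regulatory factors. The receptors are best known from macrophages, monocytes, dendritic cells, neutrophils and B cells, and some are also transcribed in T cells.

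The total counts were 13869889 and 13943237 in the WT libraries and 11959487 and 11823908 in the CD4/ALK4-KO libraries, or 47.3% to 55.8% of the number of reads stated per sample. The targeted gene *Acvr1b* was counted 426 and 342 times where the label is WT and 322 and 445 times where it is CD4/ALK4-KO, with a log2 fold change of 0.16 (SE 0.24, adjusted p = 0.66). It therefore did not separate the labelled genotypes, and every direction below is between libraries as labelled. The 4 listed genes of the T cell receptor complex (*Cd3d*, *Cd3e*, *Cd3g* and *Cd247*) summed to 2650 and 2454 counts in the WT libraries and to 10768 and 9932 in the CD4/ALK4-KO libraries. *Lyz2*, which encodes the lysozyme of myeloid cells, was more abundant than the 10 listed T cell markers together in all 4 libraries. The libraries of the 2 labels thus differed in T cell transcripts, and in bulk RNA fewer cells of a type and less RNA per cell cannot be told apart.

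The sequences that bear on the results are shown first. *Tlr1* (GRCm38, chr5:64924679-64933563, minus strand) and *Tlr6* (chr5:64952031-64960097, minus strand) are neighbouring genes, and the largest stretch that their exons share without a mismatch is 229 bp of coding sequence. It lies at chr5:64925537-64925765 in *Tlr1* and at chr5:64953828-64954056 in *Tlr6*, and is shown because a 75 bp read inside it cannot be assigned to either gene:
Tlr1 and Tlr6: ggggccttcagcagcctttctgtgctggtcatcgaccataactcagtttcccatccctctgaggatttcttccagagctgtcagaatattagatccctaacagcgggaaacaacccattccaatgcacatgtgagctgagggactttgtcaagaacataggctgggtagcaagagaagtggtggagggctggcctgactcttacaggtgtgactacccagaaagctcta
Of the 3307 distinct 75 bp windows of the *Tlr1* exons, 361 (10.9%) occur in another gene, 340 of them in *Tlr6*. Of the 3677 windows of *Tlr6*, 340 (9.25%) occur in *Tlr1*. How such reads were treated beyond the htseq-count mode is not given in the sources used here, so the counts of both genes hold that uncertainty. No window of *Tlr2*, *Tlr4*, *Tlr5*, *Tlr7*, *Tlr8*, *Tlr9* or *Tlr13* occurs in another gene. *Tlr3* shares 238 of 5561 windows (4.28%) with the antisense gene *Gm45542*, which overlaps 381 bp of its exons and is not among the listed genes. The library kit does not mark strand, so reads of the pair cannot be told apart.

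The promoters of the 3 members that rose, *Tlr1*, *Tlr9* and *Tlr5*, are shown beside that of *Tlr13*, the member with the highest level. Each is the 250 bases before a RefSeq transcription start (GRCm38.p6), read along the gene, with motif matches in capitals. The lines give *Tlr1* at chr5:64933559-64933808 on the minus strand, and on the plus strand *Tlr9* at chr9:106222348-106222597, *Tlr5* at chr1:182954538-182954787 and *Tlr13* at chrX:106143025-106143274:
Tlr1: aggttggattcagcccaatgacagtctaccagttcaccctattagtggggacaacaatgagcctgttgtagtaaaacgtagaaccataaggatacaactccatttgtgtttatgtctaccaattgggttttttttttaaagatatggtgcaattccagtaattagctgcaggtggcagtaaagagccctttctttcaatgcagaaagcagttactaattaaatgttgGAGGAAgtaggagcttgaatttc
Tlr9: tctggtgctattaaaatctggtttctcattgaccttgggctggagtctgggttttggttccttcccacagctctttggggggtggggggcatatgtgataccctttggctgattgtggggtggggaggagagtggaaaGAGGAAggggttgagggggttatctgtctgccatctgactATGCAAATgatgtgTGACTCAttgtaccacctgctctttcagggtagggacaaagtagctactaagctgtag
Tlr5: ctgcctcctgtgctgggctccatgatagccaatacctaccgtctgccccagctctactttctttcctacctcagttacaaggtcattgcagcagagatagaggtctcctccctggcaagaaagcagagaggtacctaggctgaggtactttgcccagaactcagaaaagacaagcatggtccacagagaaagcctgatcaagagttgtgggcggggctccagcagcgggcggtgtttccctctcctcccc
Tlr13: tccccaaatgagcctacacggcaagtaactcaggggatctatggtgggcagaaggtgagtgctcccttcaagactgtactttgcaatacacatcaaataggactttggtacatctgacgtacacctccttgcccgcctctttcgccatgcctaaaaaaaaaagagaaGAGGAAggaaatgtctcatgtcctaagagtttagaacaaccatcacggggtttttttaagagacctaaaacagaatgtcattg
In these windows 4 motifs were searched on both strands: GAGGAA (the core bound by PU.1), ATGCAAAT (the octamer bound by OCT factors), TGANTCA (the AP-1 site) and the kappaB site. They occur in 23.3%, 1.6%, 6.75% and 7.25% of the 32851 promoter windows of the same length. The PU.1 core was matched 23 bases before the start of *Tlr1*, 112 bases before that of *Tlr9* and 83 bases before that of *Tlr13*. The *Tlr9* window also held an octamer and an AP-1 match, which overlap neither each other nor the PU.1 core. The *Tlr5* window held no match. The other window of *Tlr1*, at a second start, held none either. Among the promoters not shown, those of *Tlr2* and *Tlr3* held a kappaB match, that of *Tlr8* a PU.1 core on the opposite strand, and those of *Tlr6* no match. No window was available for *Tlr4* and *Tlr7*, so their promoters were not searched. The windows are described by their letters only.

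Of the 10 receptor genes, 3 rose in the CD4/ALK4-KO libraries, none fell and 7 did not pass the test (edgeR's quasi-likelihood test, Benjamini-Hochberg adjusted p under 0.05), for counts scaled to TMM-adjusted library size. Over all 13919 genes tested, 17.4% were called higher and 15.4% lower. The median log2 fold change of the members was 0.25, beside -0.0082 over all genes tested. With 1 library left out, the number called higher ran from 1 (without WT replicate 1) to 4 (without CD4/ALK4-KO replicate 2), and 1 member was called lower without CD4/ALK4-KO replicate 1. Leaving out CD4/ALK4-KO replicate 1 gave the lowest median, -0.019, and leaving out replicate 2 of that genotype the highest, 0.52. When libraries were scaled instead by T cell receptor complex genes, no member was higher and 9 were lower, at a median of -1.96, where 92.0% of all genes were lower, 0.345% were higher and the median of all genes was -2.19. The groups did not overlap for 4 members that were higher and 1 that was lower in CD4/ALK4-KO, against 32.7% and 34.0% of all genes. The summed level of the family in CPM, counts scaled to library size, overlapped between genotypes, at 662 and 797 in the WT libraries and at 925 and 687 in the CD4/ALK4-KO libraries.

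**Figure D1:**
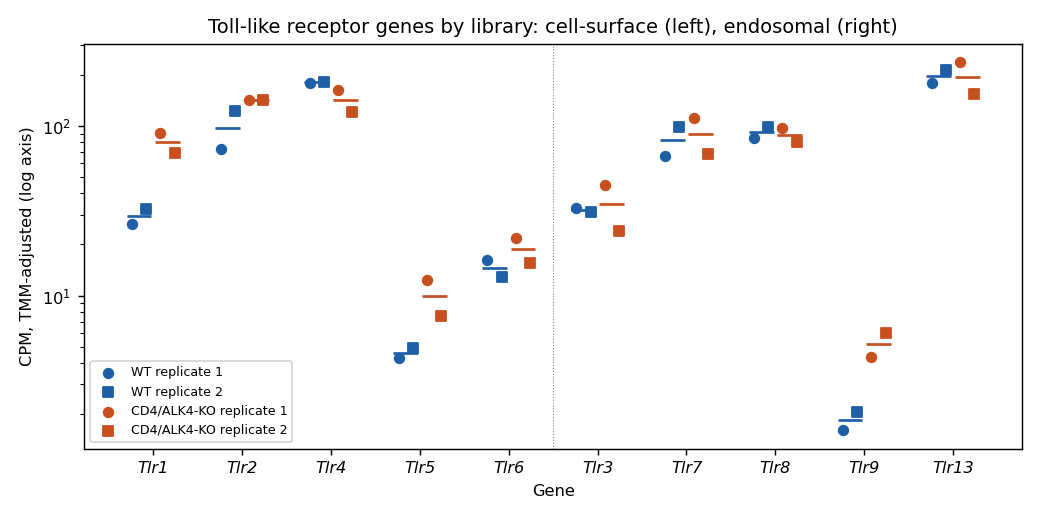
Level of each receptor gene in each library, in CPM with TMM-adjusted library sizes on a log axis, with cell-surface receptors to the left of the dotted line and endosomal receptors to the right. Points are libraries (WT blue, CD4/ALK4-KO orange) and short lines are group means of 2 libraries. The genotypes do not overlap for *Tlr1*, *Tlr2*, *Tlr5* and *Tlr9*, which are higher in CD4/ALK4-KO, and for *Tlr4*, which is lower. Over all genes tested, 32.7% did not overlap as higher and 34.0% as lower. *Tlr13* ranges from 154 to 236 CPM in the CD4/ALK4-KO libraries alone.

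Among the cell-surface receptors, *Tlr1*, which pairs with TLR2 to bind triacylated lipopeptides, changed by the widest margin over its error. It had 364 and 437 counts in the WT libraries and 1077 and 857 in the CD4/ALK4-KO libraries. The corresponding levels were 26.6 and 32.3 CPM against 90.5 and 69.4 CPM, so that both CD4/ALK4-KO libraries lay above both WT libraries. The means were 29.4 ± 4.06 and 79.9 ± 14.9 CPM (SD, n = 2), a 2.72-fold difference with a log2 fold change of 1.44 (SE 0.23, 95% interval 0.97 to 1.92, adjusted p = 4.9e-05). No library decided the call: without each of the 4 it passed, with log2 fold changes from 1.27 to 1.61. On the scale of T cell receptor complex genes, the direction turned, to a log2 fold change of -0.76 (adjusted p = 0.0046).

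*Tlr6*, the neighbour of *Tlr1* and the partner of TLR2 for diacylated lipopeptides, had 16.2 and 12.9 CPM in WT and 21.9 and 15.6 CPM in CD4/ALK4-KO. The groups overlapped, and its log2 fold change was 0.37 (SE 0.28, adjusted p = 0.34). Per kb of exon, *Tlr1* was 1.83 and 2.78 times as abundant as *Tlr6* in the WT libraries and 4.60 and 4.95 times in the CD4/ALK4-KO libraries. This ratio does not depend on how libraries are scaled. *Tlr1* also made up 4.01% and 4.06% of all counts of the 10 members in WT and 9.78% and 10.1% in CD4/ALK4-KO.

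*Tlr2*, the shared partner of both, had 72.6 and 122 CPM in WT and 143 and 142 CPM in CD4/ALK4-KO. The CD4/ALK4-KO libraries were nearly equal and lay above both WT libraries, whose own values were far apart. The log2 fold change was 0.55 (SE 0.23, 95% interval 0.066 to 1.03) and did not pass the threshold (adjusted p = 0.075). It passed without WT replicate 2 (0.96, adjusted p = 0.042), without CD4/ALK4-KO replicate 1 (0.58, adjusted p = 0.016) and without CD4/ALK4-KO replicate 2 (0.55, adjusted p = 0.023), and was 0.22 without WT replicate 1.

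*Tlr4*, the receptor for lipopolysaccharide, was the only member whose CD4/ALK4-KO libraries both lay below the WT libraries. It had 179 and 181 CPM in WT and 164 and 121 CPM in CD4/ALK4-KO. Its log2 fold change of -0.34 (SE 0.22, 95% interval -0.80 to 0.11) did not pass the threshold (adjusted p = 0.24), whereas without CD4/ALK4-KO replicate 1 it was -0.55 and passed (adjusted p = 0.024).

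*Tlr5*, the receptor for flagellin, was among the least abundant members, with 59 and 66 counts in WT and 147 and 93 in CD4/ALK4-KO. Its levels of 4.31 and 4.88 CPM against 12.3 and 7.53 CPM did not overlap, although the CD4/ALK4-KO libraries were further apart than the WT libraries. It rose 2.16-fold, with a log2 fold change of 1.11 (SE 0.35, 95% interval 0.38 to 1.84, adjusted p = 0.018). The call was lost without WT replicate 1 (1.02, adjusted p = 0.19), without WT replicate 2 (1.20, adjusted p = 0.097) and without CD4/ALK4-KO replicate 1 (0.74, adjusted p = 0.12). On the scale of T cell receptor complex genes it was called lower, at -1.09 (adjusted p = 0.0078).

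Of the endosomal receptors, only *Tlr9* passed the test on total RNA. *Tlr9* (chr9:106222598-106226883, plus strand) encodes the receptor for unmethylated CpG DNA. It had 22 and 28 counts in the WT libraries and 52 and 74 in the CD4/ALK4-KO libraries, or 1.61 and 2.07 against 4.37 and 5.99 CPM. The groups did not overlap, and at these counts the interval was wide: the log2 fold change was 1.49 (SE 0.46, 95% interval 0.54 to 2.45, adjusted p = 0.016), a 2.81-fold difference. The call was lost without WT replicate 1 (1.31, adjusted p = 0.20) and without WT replicate 2 (1.68, adjusted p = 0.080). On the scale of T cell receptor complex genes, it turned to -0.68 (adjusted p = 0.21).

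The single-stranded RNA receptors *Tlr7* and *Tlr8* lie next to each other on the X chromosome. *Tlr7* had 66.1 and 98.6 CPM in WT and 111 and 68.4 CPM in CD4/ALK4-KO, and *Tlr8* had 85.2 and 98.3 against 96.9 and 79.8 CPM. Their log2 fold changes were 0.13 (95% interval -0.39 to 0.64) and -0.054 (95% interval -0.50 to 0.38), and the groups overlapped for both. Per kb of exon, *Tlr8* was 1.47, 1.13, 0.99 and 1.33 times as abundant as *Tlr7* in WT replicates 1 and 2 and CD4/ALK4-KO replicates 1 and 2.

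*Tlr13*, which binds bacterial ribosomal RNA, and *Tlr3*, which binds double-stranded RNA, had CD4/ALK4-KO libraries on either side of both WT libraries. *Tlr13* had 178 and 213 CPM in WT and 236 and 154 CPM in CD4/ALK4-KO, with means of 196 ± 24.9 and 195 ± 58.5 CPM (SD, n = 2). *Tlr3* had 32.8 and 30.9 CPM against 44.9 and 24.1 CPM. The log2 fold changes were -0.0044 (95% interval -0.49 to 0.48) for *Tlr13* and 0.12 (95% interval -0.42 to 0.66) for *Tlr3*. These intervals are wide enough to hold changes of a size that 2 libraries per genotype would not show.

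**Figure D2:**
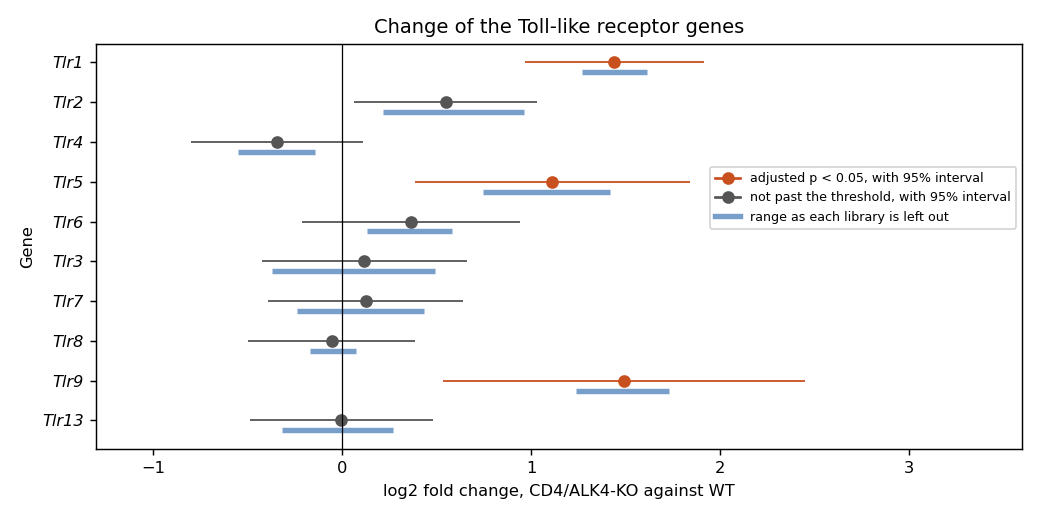
Log2 fold change of each receptor gene, CD4/ALK4-KO against WT, from edgeR with TMM scaling (points, with 95% intervals as thin lines, orange where the adjusted p was under 0.05), above the range of values when 1 library was left out (blue bars). *Tlr1*, *Tlr5* and *Tlr9* lie at 1.44, 1.11 and 1.49, while the other members run from -0.34 to 0.55. Scaled to T cell receptor complex genes, *Tlr1*, *Tlr5* and *Tlr9* turn negative. On that scale the median of all genes tested was -2.19 and 92.0% of them were called lower.

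The replicates of each genotype differed in a like order across most of the family. In 9 of the 10 members the level was higher in CD4/ALK4-KO replicate 1 than in replicate 2, *Tlr9* being the exception. In 8 of 10 it was higher in WT replicate 2 than in replicate 1. These counts include near ties, such as *Tlr2* in CD4/ALK4-KO (142.6 and 141.9 CPM) and *Tlr4* in WT (178.9 and 181.5 CPM). The summed levels of 8 of 15 lists of cell type markers had the same order in both genotypes, among them the lists of general myeloid cells, alveolar macrophages, neutrophils, fibroblasts and both kinds of dendritic cells. Neutrophil markers, for example, summed to 1003 and 1501 CPM in the WT libraries and to 1628 and 1019 CPM in the CD4/ALK4-KO libraries, with 6 of the 10 genes in that order. Their part in the levels of the members was not tested. The share of all genes in these replicate orders was not counted, so the orders cannot be called particular to the family. Over all genes tested, deviations of same-numbered replicates from their group means had a correlation of -0.26.

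Ordered by CPM per kb of exon, averaged over the 4 libraries, *Tlr13* stood first at 45.4, followed by *Tlr2* at 39.7, *Tlr4* at 29.0, *Tlr8* at 25.1, *Tlr7* at 21.1 and *Tlr1* at 16.3. *Tlr3* followed at 6.37, *Tlr6* at 4.47, *Tlr5* at 1.52 and *Tlr9* at 1.01. The ranges over the 4 libraries overlapped for every pair of neighbours in this order except *Tlr6* and *Tlr5*. The order differed in part between the genotypes: *Tlr2* stood above *Tlr13* in the CD4/ALK4-KO means (47.2 and 45.3), *Tlr4* stood narrowly above *Tlr2* in the WT means (32.4 and 32.2), and *Tlr1* had a mean of 8.80 in WT and 23.9 in CD4/ALK4-KO, the latter above *Tlr7* at 22.0. The 2 rarest members were thus both among the 3 that rose, and 5 of the 6 most abundant did not pass the test.

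For the 3 members with the highest mean CPM, the genes nearest in profile were sought among the 10460 genes averaging 100 counts or more, by the distance between mean-centred log2(CPM + 1) values over the 4 libraries. *Tlr13* was nearest to *Kansl1l* (distance 0.043), *Snx10* (0.044) and *Capza1* (0.046). *Tlr4* was nearest to *Cnbp* (0.012), *Lrrc42* (0.029) and *Cmtr2* (0.033). *Tlr2* was nearest to *Gsap* (0.043), *Lpl* (0.082) and *Ldlrad3* (0.10). With 4 libraries many genes share a profile, and the list is a description.

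The wider pathway was read from 8 lists of 102 genes, of which 98 were tested. In all, 38 rose, 4 fell and 56 did not pass the test, with a median log2 fold change of 0.44. When libraries were scaled by T cell receptor complex genes, none rose and 95 fell, at a median of -1.74. There, 92.0% of all genes were lower and 0.345% higher, at a median of -2.19. On the main scale, 17.4% of all genes tested were called higher and 15.4% lower, at a median of -0.0082. The counts of each list below stand beside these shares. Without WT replicate 1, 10 genes were called higher, and without WT replicate 2, 14, where the calls over all genes also dropped from 2422 higher to 1103 and 1344. The genes that fell lay among the receptors' partners, and the genes of signalling and response rose or did not pass.

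Upstream of the signal, co-receptors and ligand-binding partners showed 1 fall and no rise among 6 tested of 7. *Cd14*, which hands lipopolysaccharide to TLR4, had 327 and 327 CPM in WT and 395 and 427 in CD4/ALK4-KO (log2 fold change 0.33, adjusted p = 0.25). *Cd36*, a scavenger receptor that assists TLR2 with TLR6, fell from 306 and 339 CPM to 221 and 183 CPM (log2 fold change -0.68, adjusted p = 0.021), a call lost without WT replicate 1 (adjusted p = 0.14) or WT replicate 2 (adjusted p = 0.24). The untested *Tril* had 0 to 5 counts per library.

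Of 19 genes for receptor folding, trafficking and processing, 18 were tested, 2 rose and 3 fell. The falls included *Hsp90b1*, the endoplasmic reticulum chaperone gp96 that folds most Toll-like receptors. It had 2361 and 2654 CPM in WT and 1419 and 1239.9 CPM in CD4/ALK4-KO (log2 fold change -0.92, adjusted p = 0.0011), and passed the threshold no longer without WT replicate 2 (adjusted p = 0.062). *Ctsl*, a cathepsin that cleaves endosomal receptors, fell from 2307 and 2546 to 972 and 891 CPM (log2 fold change -1.38, adjusted p = 1.5e-05). *Ctsb*, a related protease and the most abundant gene of the list, was at -0.32 (adjusted p = 0.20). *Nrros*, which binds Toll-like receptors in the endoplasmic reticulum, rose from 41.7 and 43.5 to 69.2 and 110 CPM (log2 fold change 1.07, adjusted p = 0.0013). *Rnaset2a*, a lysosomal ribonuclease gene, had 0 counts in all 4 libraries.

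Among the adaptors, 3 of 6 rose and none fell. *Myd88*, the adaptor of all members but *Tlr3*, had 65.5 and 59.0 CPM in WT and 86.6 and 107 CPM in CD4/ALK4-KO (log2 fold change 0.63, adjusted p = 0.027). Its call was lost without WT replicate 1 (adjusted p = 0.19), WT replicate 2 (adjusted p = 0.29) or CD4/ALK4-KO replicate 2 (adjusted p = 0.070). *Pik3ap1*, which links the receptors to phosphoinositide 3-kinase and is also used by the B cell receptor, rose from 37.1 and 56.3 to 85.4 and 116 CPM (log2 fold change 1.11, adjusted p = 0.0012), and was at 0.83 without WT replicate 1 (adjusted p = 0.10).

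Kinases and ubiquitin ligases had 11 of 21 genes higher and none lower. *Peli1*, an E3 ligase that modifies IRAK proteins and also acts in T cell activation, rose from 34.3 and 45.8 to 144 and 164 CPM (log2 fold change 1.94, adjusted p = 9.7e-07). *Tab2*, an adaptor of the kinase TAK1, rose from 98.9 and 103 to 147 and 156 CPM (log2 fold change 0.59, adjusted p = 0.033), a call lost without WT replicate 1 (adjusted p = 0.33) or WT replicate 2 (adjusted p = 0.24). *Chuk*, the gene for IKK alpha, was at 0.38 (adjusted p = 0.21).

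Transcription factors had 4 of 8 genes higher and none lower. *Rel*, the NF-kappaB subunit c-Rel of lymphocytes, rose from 36.3 and 60.8 to 141 and 149 CPM (log2 fold change 1.58, adjusted p = 2.8e-05). *Irf7*, the interferon regulatory factor downstream of the endosomal receptors, rose with a log2 fold change of 0.64 (adjusted p = 0.021), and did not pass without WT replicate 1 (adjusted p = 0.28) or WT replicate 2 (adjusted p = 0.18). *Nfkbiz* was at 0.52 (adjusted p = 0.060). Of the 9 inhibitors, 4 rose and none fell. *Tnfaip3*, the gene for the ubiquitin-editing enzyme A20, rose from 187 and 179 to 564 and 692 CPM (log2 fold change 1.78, adjusted p = 2.6e-06). *Nfkbia*, the gene for the NF-kappaB inhibitor IkB alpha, was at 0.46 (adjusted p = 0.12).

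Of 19 target genes 17 were tested, and 7 rose with no fall. The most abundant, *Ptgs2* and *Il1b*, encoding cyclooxygenase-2 and interleukin-1 beta, did not pass, with log2 fold changes of -0.39 (adjusted p = 0.16) and 0.51 (adjusted p = 0.078). The largest rise belonged to *Il12a*, a subunit of interleukin-12, at 0.15 and 0.74 CPM in WT and 2.10 and 2.27 CPM in CD4/ALK4-KO (log2 fold change 2.28, SE 0.71, adjusted p = 0.016), a call lost without WT replicate 1 (adjusted p = 0.40). Innate sensors outside the family, shown for reference, had 7 of 13 genes higher and none lower. *Nod2*, a cytosolic sensor of bacterial cell wall, rose from 5.47 and 6.73 to 13.2 and 19.8 CPM (log2 fold change 1.44, adjusted p = 0.0012). *Clec7a* and *Sting1*, encoding Dectin-1 and STING, were at 0.58 (adjusted p = 0.054) and 0.38 (adjusted p = 0.18).

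**Figure D3:**
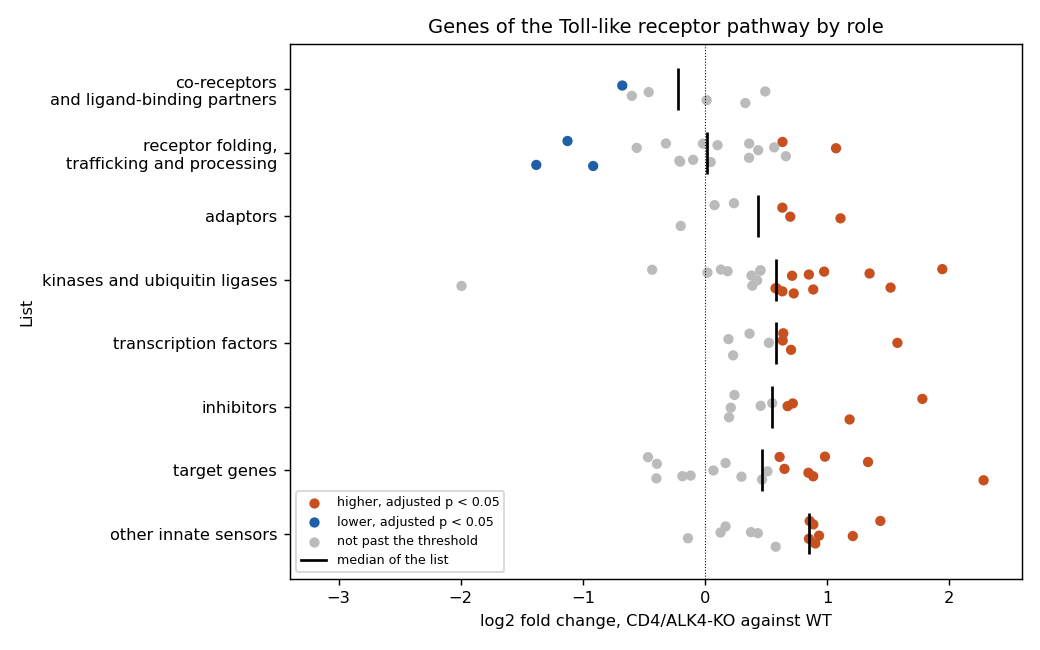
Log2 fold change, CD4/ALK4-KO against WT with TMM scaling, of the 98 tested pathway genes by role, with 1 point per gene (orange higher and blue lower at an adjusted p under 0.05, grey not past) and a black line at the median of each list. The 4 genes that fell lie in the top 2 lists, and the medians of the other lists run from 0.44 to 0.85. Scaled to T cell receptor complex genes, no pathway gene was called higher and 95 were called lower. On that scale 92.0% of all genes tested were called lower and 0.345% higher.

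The levels of marker genes of the cells that the isolate could hold moved with genotype as follows. Here and in the next paragraphs, counts of genes called stand beside 17.4% of all genes tested called higher and 15.4% lower. All 10 listed T cell markers rose, summing to 435 and 392 CPM in WT and 2204 and 2097 CPM in CD4/ALK4-KO, and *Cd3g* was the most abundant at 84.4, 75.9, 419 and 297 CPM. All 10 B cell markers rose as well, from a sum of 85.6 and 73.9 to 252 and 483 CPM, with *Cd79b*, a chain of the B cell receptor, at 24.2, 20.6, 50.7 and 94.2 CPM. B cells are known to transcribe *Tlr9* and *Tlr1*, and the part of the B cell markers in the rise of these genes was not tested.

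Plasmacytoid dendritic cell markers, whose cells also express *Tlr9* and *Tlr7*, had 3 of 7 genes higher and none lower, with sums of 34.8 and 37.0 CPM in WT and 206 and 101 CPM in CD4/ALK4-KO. *Ccr9* led that list in level, at 8.17, 7.10, 121 and 18.1 CPM, so that 1 library carried much of its sum. Conventional dendritic cell markers had 4 of 8 genes higher and 1 lower (sums of 114, 124, 254 and 238 CPM). *Itgax*, the gene for CD11c, rose from 22.0 and 37.1 to 64.4 and 94.4 CPM. The other genes called higher were *Itgae*, *Flt3* and *Cd209a*, at log2 fold changes of 2.03, 1.45 and 1.32. *Clec9a* was called lower, at -0.73. *Xcr1* (0.26), *Batf3* (0.083) and *Zbtb46* (0.62) did not pass the threshold. Monocyte markers had 3 of 6 genes higher (sums of 1707, 1738, 2092 and 2232 CPM), while their most abundant gene *Fn1* had a log2 fold change of 0.086. Neutrophil markers had 3 of 10 higher, and *S100a9* was at 467, 735, 733 and 474 CPM.

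The lists of macrophages and of myeloid cells in general are set against 32.8% of all genes called in either direction. General myeloid markers had 1 of 7 genes higher and none lower, with sums of 5705 and 7272 CPM in WT and 6264 and 6137 CPM in CD4/ALK4-KO. *Lyz2* alone was at 4982 ± 996 and 4493 ± 375 CPM (SD, n = 2). Of 8 macrophage markers none passed the test, and their most abundant gene *Apoe* was at 1028 and 532 against 550 and 621 CPM. Alveolar macrophage markers had 3 of 8 genes lower and 1 higher, and *Chil3*, a chitinase-like protein of these cells, fell from 538 and 717 to 405 and 301 CPM (adjusted p = 0.0075), a call lost without WT replicate 2 (adjusted p = 0.24). No marker of these lists was at 0 in all 4 libraries. The part of these cell types in the levels and changes of the Toll-like receptors was not tested.

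The remaining marker lists were those of CD8 T cells (2 of 2 genes higher, *Cd8a* at 26.6, 23.7, 168 and 104 CPM), NK cells (6 of 6 higher, *Gzma* at 38.0, 68.9, 125 and 161 CPM) and mast cells, basophils and eosinophils (1 of 5 tested higher, *Cpa3* at 8.46, 16.9, 22.3 and 13.4 CPM). Lung epithelial markers had 2 of 6 genes higher and 3 lower, with *Scgb1a1* at 415, 437, 336 and 179 CPM. Endothelial markers had 1 of 5 higher and 1 lower, at a median log2 fold change of -0.67. *Pecam1* was the gene called higher, at 22.5, 42.7, 106 and 108 CPM. *Cldn5*, at 8 to 37 counts per library, was called lower (log2 fold change -1.54). *Cdh5* (-0.67), *Tek* (-0.81) and *Kdr* (0.013) did not pass the threshold. Fibroblast markers had 2 of 5 genes lower, with *Col3a1*, a collagen chain, at 2788, 2668, 1423 and 1444 CPM. Their part in the results on the receptors was not tested.

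**Figure D4:**
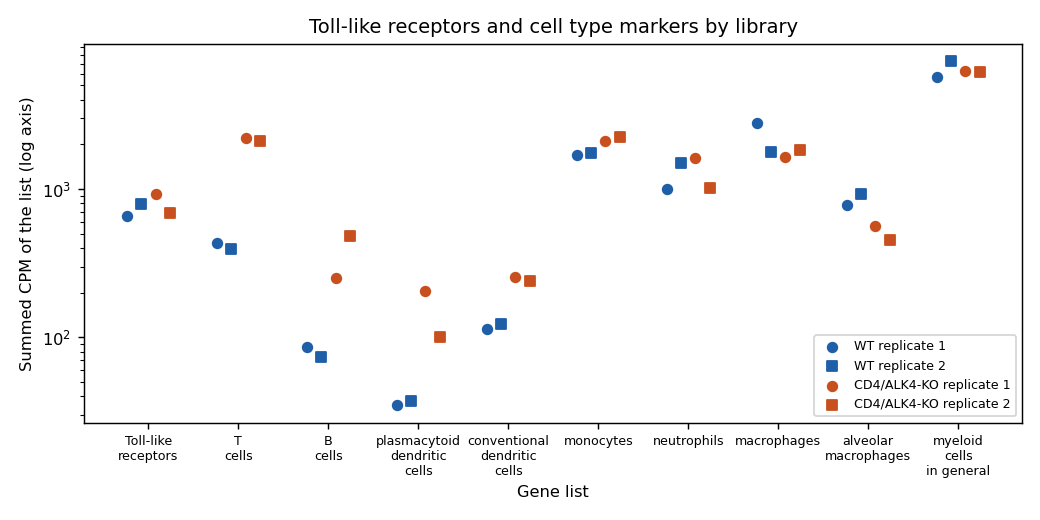
Summed CPM (log axis) of the 10 Toll-like receptors and of 9 lists of cell type markers in each library, with WT in blue, CD4/ALK4-KO in orange, circles for replicate 1 and squares for replicate 2. The receptor sums run from 662 to 925 CPM with the genotypes interleaved. The T cell, B cell, monocyte and dendritic cell marker sums are higher in both CD4/ALK4-KO libraries than in both WT libraries. The alveolar macrophage sums are lower in both.

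The family genes outside the 10 members were rare. *Tlr11*, a receptor for profilin, had 76 and 36 counts in WT and 51 and 52 in CD4/ALK4-KO, with a log2 fold change of 0.049. *Tlr12*, its partner, had 16 and 7 counts against 26 and 45, and passed the test at a log2 fold change of 1.78 (SE 0.61, adjusted p = 0.028). At these counts the call was lost without WT replicate 1 (adjusted p = 0.096), WT replicate 2 (adjusted p = 0.33) or CD4/ALK4-KO replicate 2 (adjusted p = 0.11), and scaled by T cell receptor complex genes the value was -0.37.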

How the data were processed

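The authors aligned 75 bp single-end RNA-Seq reads (TruSeq RNA v2) to mm10 with HISAT2 and deposited raw counts per gene symbol from htseq-count in its "intersection non empty" mode. Versions, annotation and the strand option are not given in the sources used here. Chi-square per degree of freedom between replicates was 16.0 (WT) and 28.7 (CD4/ALK4-KO), above sampling noise. Each library was counted as 1 replicate, as labelled. These values do not tell whether a library came from 1 mouse or a pool.

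Differential expression was computed from the counts with edgeR 4.0.16 in R 4.3.3: filterByExpr (13919 genes), TMM scaling and robust quasi-likelihood fitting of genotype alone, with Benjamini-Hochberg adjustment over all genes tested (threshold 0.05). The authors used DESeq2 (here version 1.42.0, an alternative). Standard errors were obtained from F (the size of the log2 fold change over the root of F), and 95% intervals use the total degrees of freedom. The procedure was tested on simulated data. CPM used TMM-adjusted library sizes, and levels between genes were divided by merged exon length (GENCODE M21, GRCm38). Promoters came from a RefSeq table, which matched 8 members, all but *Tlr4* and *Tlr7*.

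Named were all members, *Acvr1b*, *Cd4*, *Tlr11*, *Tlr12*, of each pathway list the 2 members highest in CPM and the called members with the largest rise and fall, of each marker list the member highest in CPM, any listed gene at 0 in all libraries, and nearest genes in profile. All conventional dendritic cell and endothelial markers were named as well. The members and lists were chosen with earlier results of these data known. Alternatives were other scalings (DESeq2's size factors, upper quartile, T cell receptor complex genes), filters and tests, removal of 87 abundant genes, a replicate block, and each library left out.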

Additional observations from a re-analysis of the deposited data

How the results depend on the processing

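With 2 libraries per genotype, 95% intervals of the members not past the threshold reach from -0.80 to 1.03 on the log2 scale, and *Tlr5* and *Tlr9* rest on few counts. DESeq2's size factors, upper quartile scaling, other filters, DESeq2's Wald test, the likelihood ratio test and the removal of abundant genes left the number of receptor genes called higher at 3 and lower at 0. *Tlr1* passed the threshold under all 14 alternatives and lay above 0 under 13, *Tlr9* passed as higher under 11, and *Tlr5* passed under 11, 10 times as higher and as lower with the T cell receptor scale. Values that changed sign by little were *Tlr13*, at 0.0036 with DESeq2's size factors and 0.0036 with its Wald test, *S100a9* at -0.062 and *Tlr11* at -0.025 with upper quartile scaling, the median of receptor folding, trafficking and processing at -0.050 with upper quartile scaling, and the median of the co-receptors at 0.011 without a filter.

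Scaling to the T cell receptor complex genes moved the median of all genes to -2.19, so that 48 genes of all were higher and 12803 lower. There 0 receptor genes were higher and 9 lower (median -1.96), and 0 pathway genes were higher and 95 lower (median -1.74). The receptors whose direction turned were *Tlr1* (-0.76), *Tlr2* (-1.65), *Tlr3* (-2.09), *Tlr5* (-1.09), *Tlr6* (-1.83), *Tlr7* (-2.09) and *Tlr9* (-0.68), with *Tlr11* (-2.12), *Tlr12* (-0.37) and *Acvr1b* (-2.01). Pathway medians turned for folding and trafficking (-2.19), adaptors (-1.75), kinases and ubiquitin ligases (-1.62), transcription factors (-1.61), inhibitors (-1.64), target genes (-1.72) and other sensors (-1.35). Pathway genes that turned were *Cd14* (-1.85), *Chuk* (-1.82), *Clec7a* (-1.62), *Il1b* (-1.67), *Irf7* (-1.55), *Myd88* (-1.54), *Nfkbia* (-1.72), *Nfkbiz* (-1.66), *Nod2* (-0.74), *Nrros* (-1.09), *Peli1* (-0.24), *Pik3ap1* (-1.07), *Rel* (-0.62), *Sting1* (-1.81), *Tab2* (-1.60) and *Tnfaip3* (-0.40). Markers that turned were *Cd3g* (-0.037), *Cd79b* (-0.47), *Cpa3* (-1.73), *Fn1* (-2.08), *Gzma* (-0.77), *Itgax* (-0.76), *Pecam1* (-0.48) and *S100a9* (-2.21). *Cd3g* is among the genes that set this scale, so its value there largely follows from the scaling.

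When 1 library was left out, receptor genes called higher ran from 1 to 4 and lower from 0 to 1, with medians from -0.019 to 0.52, and pathway genes called higher from 10 to 48 and lower from 2 to 8. Calls over all genes were 1103 higher and 754 lower without WT replicate 1, and 1344 and 1047 without WT replicate 2, against 2422 and 2140. An arm left with 1 library was assumed to vary like the other. Ranges that crossed 0 were those of *Tlr3* (-0.37 to 0.49), *Tlr7* (-0.24 to 0.43), *Tlr8* (-0.17 to 0.074), *Tlr13* (-0.32 to 0.27), *Tlr11* (-0.39 to 0.67), *Acvr1b* (-0.065 to 0.39), *Apoe* (-0.82 to 0.13), *Fn1* (-0.15 to 0.32), *Lyz2* (-0.35 to 0.062), *S100a9* (-0.31 to 0.36), and that of the median of receptor folding, trafficking and processing (-0.081 to 0.13). The cause of these changes was not tested.

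Same-numbered replicates did not deviate together from their group means (correlation -0.26). Whether libraries of the same or of different number shared a batch or another pairing was not tested. With the replicate number as a block, the receptor genes called stayed at 3 higher and 0 lower, with adjusted p of 0.048 for *Tlr5* and 0.032 for *Tlr9*, pathway genes called higher fell to 22, and 1768 genes of all were higher and 1444 lower. With the numbers crossed, a pairing chosen after seeing the data, 4 receptor genes were called higher and 0 lower, 49 pathway genes higher and 9 lower, and 3118 genes of all were higher and 3037 lower.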
